A study of Homo sapiens with 6 samples.

Results

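Readthrough genes are annotated genes whose transcripts run from an upstream gene X into the neighbouring downstream gene Y and join exons of both. The members described here were all protein-coding genes of GENCODE release 44 named X-Y where X and Y are names of other genes in that release. This rule used the names alone and gave 122 genes among 62252 genes quantified, of which 19991 were protein-coding. In 121 of the 122, X and Y lie on the same strand of the same chromosome. In *BORCS7-ASMT* the name fits the rule but *ASMT* lies on another chromosome, so this gene was left out of every comparison against X and Y.

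Transcription normally ends after the poly-A signal of a gene, where the nascent RNA is cleaved by the 3′ end processing machinery and the polymerase is then released. When cleavage is bypassed, the polymerase can continue into the next gene on the same strand, and splicing can join an exon of the first gene to an exon of the second. Such chimeric transcripts may encode a fused protein, or may carry a premature stop codon that makes them candidates for nonsense-mediated decay (NMD), the pathway that degrades messages with early stops. PCBP1, the protein depleted here, binds C-rich RNA, takes part in splicing and messenger RNA stability, and also delivers iron within the cell.

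RNA was measured in K562, a human erythroleukemia line. Both groups were transduced overnight with pLKO.1 lentivirus in 8 µg/mL polybrene and were then selected with 3 µg/mL puromycin for 4 days. The hairpin was directed against luciferase in the 3 shCtrl libraries and against PCBP1 in the 3 shPCBP1 libraries, with 1 hairpin sequence in each group. Poly-A RNA was sequenced from paired ends with 150 cycles. The labels do not say whether the libraries of a group came from separate cultures, so the p-values below measure the spread between these libraries, which may be technical.

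The libraries held between 67066747 and 140522444 estimated counts, and the 3 shPCBP1 libraries were shallower on average than the shCtrl libraries. *PCBP1* in shPCBP1 stood at 18.1% of its level in shCtrl, a log2 fold change of -2.47. All 12 erythroleukemia markers checked were detected, with a summed TPM (an abundance per transcript length, scaled to the same total in each library) of 29280 to 35110 in shCtrl and 33480 to 34920 in shPCBP1. The 10 markers of other blood and adherent cells summed to 94.14 to 100.1 TPM in shCtrl and 85.55 to 94.99 TPM in shPCBP1, and 3 of these markers averaged under 0.1 TPM. In the DESeq2 fit described below, 5 of the 12 erythroleukemia markers rose and none fell, and *COL1A1* (log2 fold change -0.31), *COL1A2* (-0.43) and *EPCAM* (-0.19) fell among the other markers, where none rose. The part of these movements in the readthrough values was not tested. These are bulk RNA values, so fewer cells of a kind and less RNA per cell cannot be told apart.

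A sequence that neither parent holds is the junction where an exon of X meets an exon of Y. The junctions below are those of the readthrough genes that passed the test of level described below with a log2 change beyond 0.5 and whose most abundant transcript joins X to Y by a single intron, and of SPECC1L-ADORA2A, which had the lowest p in the comparison of shares. In each, the last 15 bases on the X side are in lower case and the first 15 bases on the Y side are in capitals, read 5′ to 3′ on the transcribed strand of GRCh38. The intervals are the introns removed between them.
ATP6V1G2-DDX39B (chr6:31542149-31546108, minus strand): agcaagcagcaggcgACAGGCATTTTCCAA
MIA-RAB4B (chr19:40777080-40780018, plus strand): gatgtgaagacagacACTTCCTCTTCAAAT
RNF103-CHMP3 (chr2:86542313-86620329, minus strand): atctggctggttcagGTCAATGAGTGGTCA
PMF1-BGLAP (chr1:156236484-156242552, plus strand): cagcaggcctggcagGTGCGAAGCCCAGCG
ST20-MTHFS (chr15:79889355-79907628, minus strand): gtctcccaggttcagGTGATTGCCCACAGT
HSPE1-MOB4 (chr2:197501239-197523623, plus strand): ggttctaaaggaaagGATTTCTATAATTGG
SPECC1L-ADORA2A (chr22:24414745-24433130, plus strand): gctgccccacagcgtGTGCCTCAGGAACCC
CORO7-PAM16 (chr16:4343292-4355285, minus strand): gacgaggacgagtggGCCAAGTACCTGGCC
These 30 bases are the only stretch that neither parent holds when all other exons and junctions of the transcript occur in X or Y. The deposited values do not say how many reads crossed them. With the joining intron counted, SPECC1L-ADORA2A and RNF103-CHMP3 each had 3 introns found in neither parent, and ST20-MTHFS had 2. Some listed transcripts also held bases in exons of neither parent. These were 20.7% in RNF103-CHMP3, 10.0% in ST20-MTHFS, 2.58% in PMF1-BGLAP, 1.97% in SPECC1L-ADORA2A and 0.0553% in MIA-RAB4B.

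The structure was read from the most abundant transcript of each readthrough gene, or from the transcript with the lowest identifier for the 16 genes listed at 0 in all libraries, which had no values to choose by. Over the 121 loci, the gap from the end of X to the start of Y had a median of 4705 bases, and X and Y overlapped in 12 loci. The transcript began within 100 bases of an annotated start of X in 94 loci and ended within 100 bases of an annotated end of Y in 67. A single intron joined an X exon directly to a Y exon in 97, and its length ranged from 679 to 162889 bases with a median of 17063. In 83 of these 97 the Y exon reached was the exon after the first of a Y transcript, and in 61 the X exon left was the last but one of an X transcript. A transcript that leaves X before its last exon does not use the poly-A site that this exon carries.

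**Figure D1:**
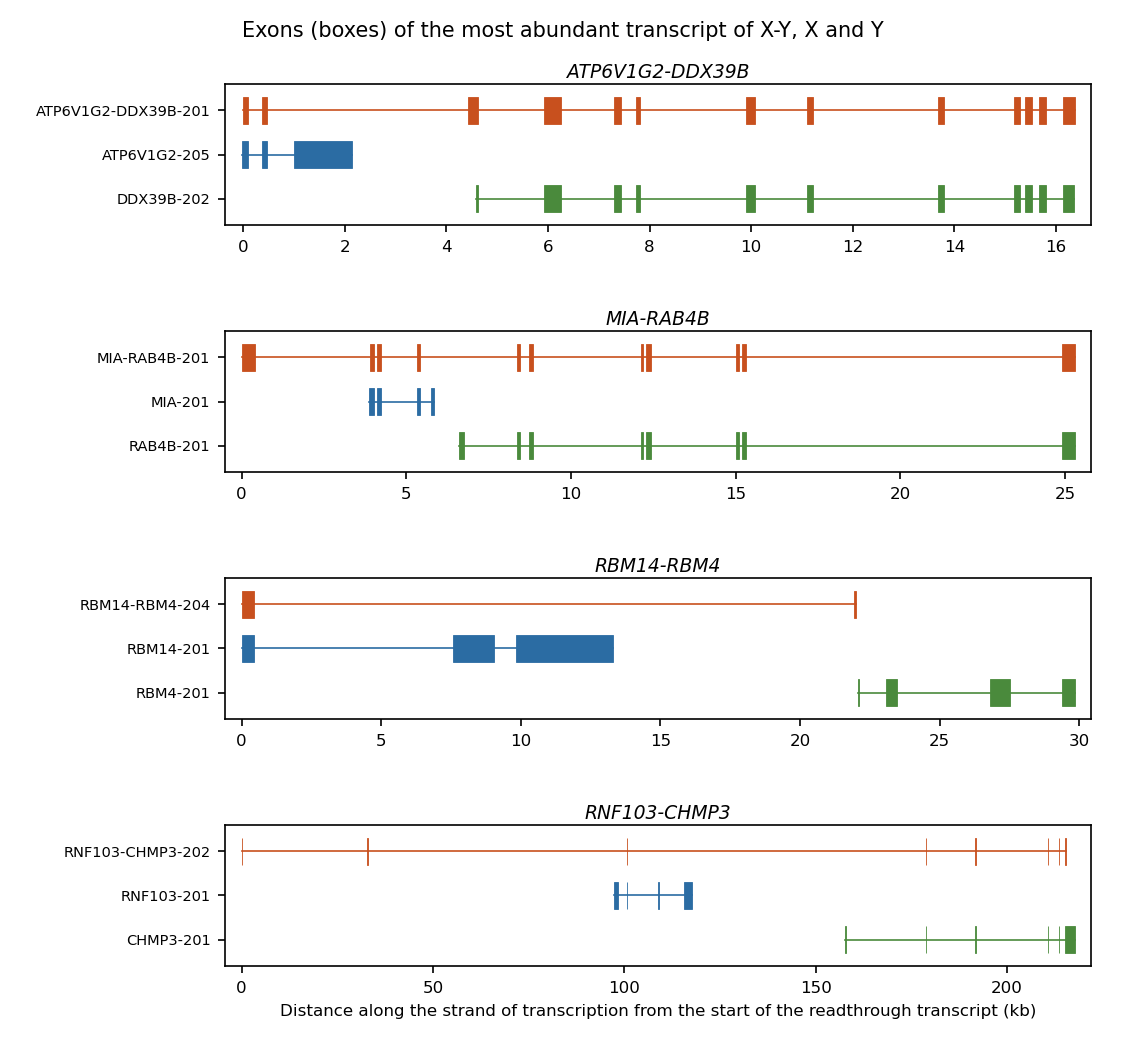
Exons (boxes) of the most abundant transcript of 4 readthrough genes and of their upstream gene X and downstream gene Y, against distance in kb along the strand from the start of the readthrough transcript. ATP6V1G2-DDX39B and MIA-RAB4B leave X before its last exon and then follow the exons of Y. RBM14-RBM4-204 holds the first exon of RBM14 and 1 short exon before RBM4, and RNF103-CHMP3-202 starts far upstream of RNF103.

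Most readthrough transcripts shared nearly all of their sequence with their parents. The median share of bases found in exons of neither X nor Y was 0.457%, 53 of the chosen transcripts had no such base, and 22 had over 20%. Salmon, the program the authors used, divides reads among transcripts that share sequence by a likelihood model, so the division between a readthrough gene and its parents is uncertain in every locus. The transcript so chosen was annotated as protein-coding in 65 members and as an NMD target in 42. Of the 415 readthrough transcripts in all, 180 were protein-coding and 177 were NMD targets.

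Most readthrough genes were expressed at a low level. Of the 122, 16 were listed at 0 in all 6 libraries, among them *INS-IGF2*, *FXYD6-FXYD2* and *BUB1B-PAK6*, and 74 had counts in all 6. A summed count of at least 10 was reached by 101, whose mean TPM had a median of 1.04 and ranged from 0.013 to 68.9. A mean of at least 1 TPM was reached by 51 members, and 13 reached 10 TPM. A listed 0 may be a failed estimate where the parents are expressed, since their reads fit more than 1 transcript.

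Of the 5 members of highest mean TPM, 1 passed the test described below. *BOLA2-SMG1P6*, which joins an iron-sulfur trafficking gene to a pseudogene copy of the NMD kinase *SMG1*, stood at 65.2, 67.3 and 67.9 TPM in the shCtrl libraries and at 64.7, 73.8 and 74.8 TPM in the shPCBP1 libraries. *BOLA2* and the *SMG1* pseudogenes have near-identical copies elsewhere on chromosome 16, so its level is uncertain. It did not pass (DESeq2 adjusted p 0.175), except without shPCBP1 replicate 1 (0.0145). *ABCF2-H2BK1*, which joins an ATP-binding cassette gene to a histone H2B gene, stood at 44.4, 43.8 and 42.0 TPM in the shCtrl libraries and at 49.3, 45.5 and 44.8 TPM in the shPCBP1 libraries. The groups were apart by a small margin, and the gene rose by 0.13 on the log2 scale (SE 0.054, DESeq2 adjusted p 0.048). It passed with a library left out only without shPCBP1 replicate 3 (0.0175), with adjusted p-values of 0.0566 to 0.303 in the other fits and a fold change of 0.07 without shPCBP1 replicate 1. The call was also lost in edgeR (0.13), and in DESeq2 with TMM factors (0.0761), with transcript length offsets (0.167), among genes of at least 50 mean counts (0.0579) and with protein-coding transcripts alone (0.157). *ABCF2* itself rose by 0.38.

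*RPL36A-HNRNPH2*, a fusion of a ribosomal protein gene with a gene of the hnRNP H family of splicing regulators, was the least steady of the 5. Its TPM values were 53.6, 44.9 and 12.1 in shCtrl and 54.4, 72.5 and 38.7 in shPCBP1. The groups overlapped, and the low value of shCtrl replicate 3 made up most of the spread (log2 fold change 0.62, SE 0.654, DESeq2 adjusted p 0.525). *CFAP298-TCP10L*, whose upstream gene acts in the assembly of motile cilia, ranged from 41.9 to 46.4 TPM in shCtrl and from 39.3 to 43.2 TPM in shPCBP1 (DESeq2 adjusted p 0.299). *ARPC4-TTLL3*, which joins a subunit of the actin-nucleating ARP2/3 complex to a tubulin glycylase, ranged from 29.8 to 34.0 TPM and from 27.3 to 32.8 TPM in the same order (DESeq2 adjusted p 0.824).

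Within a locus, the readthrough gene was usually the minor product. The share of the summed TPM of X, Y and X-Y that X-Y held had a median of 3.63% over the members with a summed count of at least 10, and 35 of them held under 1%. Of all members, 9 held over 20%, led among those above 10 TPM by *HNRNPUL2-BSCL2* at 45.1%, a gene named after its values were seen. Over 100 members, the readthrough gene exceeded Y in 25 loci and X in 5, and it exceeded both in 1. Its level across loci went with that of X somewhat more than with that of Y (Spearman rho 0.47 with X and 0.34 with Y, Pearson r of log2 TPM 0.50 and 0.31). These correlations run across genes that share reads with their parents and are given as descriptions.

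The comparison of shPCBP1 with shCtrl asked whether readthrough genes changed when PCBP1 was depleted. In the DESeq2 fit over all genes, 71 readthrough genes received an adjusted p, and 18 of them (25.4%) were under 0.05, against 31.2% of all genes tested. Of these, 15 rose (21.1%, against 17.7% of all genes) and 3 fell (4.23%, against 13.5%). Passing members were thus no more frequent than among all genes, and those that passed were mostly rises. The 15 rises ran from 0.13 to 1.53 on the log2 scale.

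A size threshold was then added, which asks for a log2 change beyond 1 in either direction at a mean of over 10 normalized counts. It was passed by 4 of 71 members (5.63%), against 1.37% of all genes. *IFNAR2-IL10RB*, *ATP6V1G2-DDX39B* and *MIA-RAB4B* were higher (0.386% of all genes were), and *RNF103-CHMP3* was lower (0.989% of all genes were). When DESeq2 tested against a log2 fold change of 1 rather than 0, it called 0 of 100 members at an adjusted p under 0.05, against 0.0486% of all genes, with 1 member at an unadjusted p under 0.05. The edgeR quasi-likelihood test, read at the same thresholds as the first fit, called 7 of 101, against 1.12% of all genes.

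Over the 71 tested members, 47 were higher and 24 lower on average in shPCBP1, with a median log2 fold change of 0.16, where all genes had a median of 0.002 and 50.4% were higher. The normalized counts of the groups did not overlap in 22 members (31.0%), against 44.2% of all genes, with 17 higher (against 23.7%) and 5 lower (against 20.5%). Of the 53 members that did not pass, 41 had a fold change within 0.5 on the log2 scale. The median SE was 0.224 for readthrough genes and 0.0899 for all genes, and the median normalized count was 248 against 1440. The fold change of a readthrough gene was thus estimated less precisely than that of a typical gene.

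**Figure D2:**
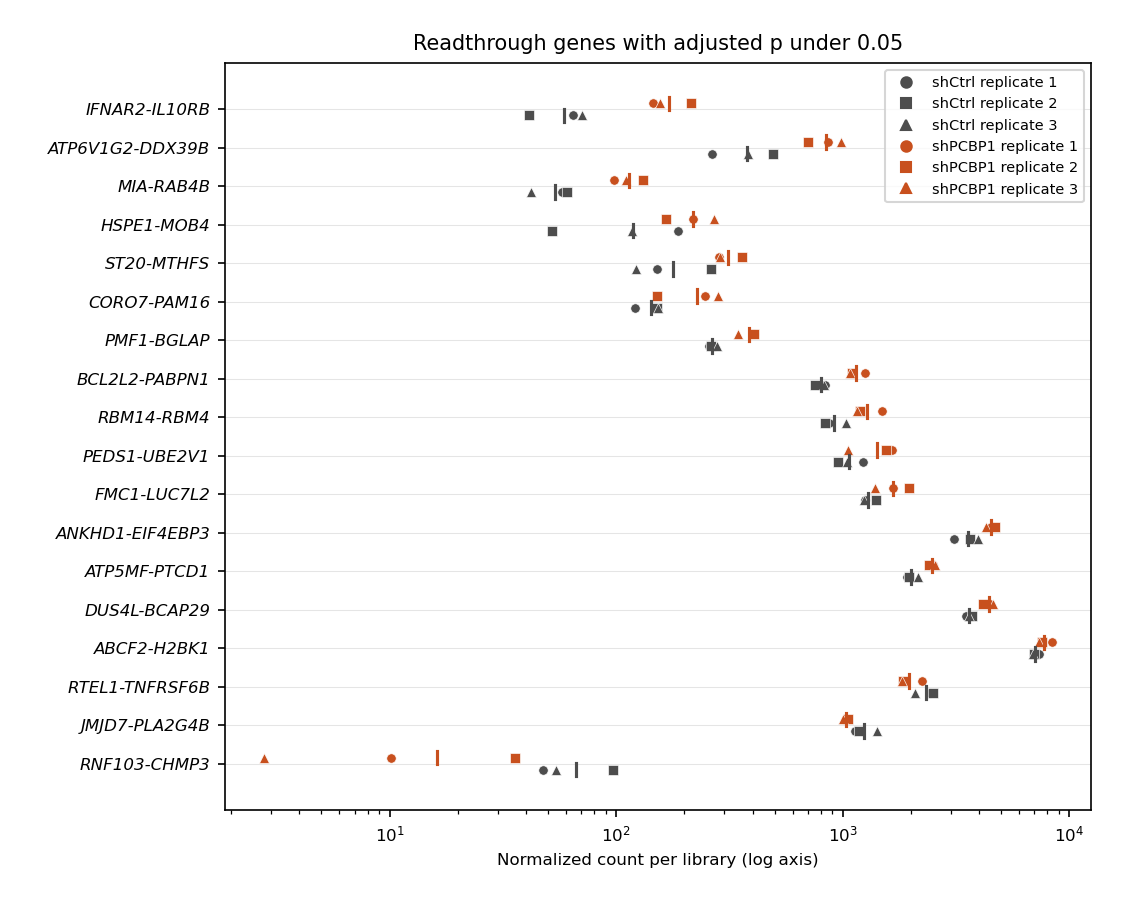
Normalized count per library (log axis) of the 18 readthrough genes with a DESeq2 adjusted p under 0.05, ordered by fold change. Points are libraries and vertical bars are group means. The groups are apart in 13 of the 18 and overlap in 5, and the 3 falls are the lowest rows.

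*ATP6V1G2-DDX39B* joins *ATP6V1G2*, a subunit of the vacuolar proton pump expressed mainly in neurons, to *DDX39B*, an RNA helicase of splicing and messenger RNA export. The shCtrl libraries held 264.5, 493.4 and 380.8 normalized counts of it, and the shPCBP1 libraries 856.7, 702.7 and 977.1. Every shPCBP1 library lay above every shCtrl library. The log2 change was 1.16 (SE 0.183, DESeq2 adjusted p 5.8e-09), a 2.23-fold rise. *DDX39B* itself was at 311 to 323 TPM in shCtrl and 329 to 348 TPM in shPCBP1, with a log2 fold change of 0.04. The change lay almost wholly in transcript ATP6V1G2-DDX39B-201, an NMD target that held 99.3% of the gene's TPM and carries the junction shown above. Without shCtrl replicate 1 the fold change was 0.96, still past the adjusted p but under the size threshold.

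*IFNAR2-IL10RB* joins receptor chains of type I interferon and of interleukin 10 family cytokines. Normalized counts were 64.5, 41.3 and 70.9 in the shCtrl libraries against 145.0, 213.7 and 156.4 in the shPCBP1 libraries, with no overlap. The log2 fold change was 1.53 (SE 0.3, DESeq2 adjusted p 4.14e-06). *IFNAR2* fell by 0.30 on the log2 scale (SE 0.0829, DESeq2 adjusted p 0.00162), and *IL10RB* had a log2 fold change of -0.06 (DESeq2 adjusted p 0.507). In the DESeq2 fit over transcripts the largest difference in counts was in IFNAR2-IL10RB-205, an NMD target with a mean of 50.4 normalized counts that was listed at 0 in shCtrl replicates 1 and 3. Its log2 change of 3.90 (SE 1.72) did not pass (DESeq2 adjusted p 0.157). IFNAR2-IL10RB-202 and IFNAR2-IL10RB-204 had log2 changes of 0.66 and 0.37. With protein-coding transcripts alone the log2 fold change was 0.63 and no adjusted p was given.

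*MIA-RAB4B* joins *MIA*, which encodes a secreted protein of cartilage and melanoma, to *RAB4B*, a small GTPase of endosome recycling. In shCtrl it had 57.9, 60.9 and 42.0 normalized counts, and in shPCBP1 it had 97.8, 131.8 and 110.7. All shPCBP1 libraries were above all shCtrl libraries, and the log2 change was 1.09 (SE 0.322, DESeq2 adjusted p 0.00373). *RAB4B* fell by 0.32 (SE 0.105, DESeq2 adjusted p 0.00909). The log2 ratio of the fusion to *MIA* alone, described below, was lower in shPCBP1, so the fusion was not higher against both parents. The fusion has a single transcript, annotated as an NMD target. Without shCtrl replicate 3 or without shPCBP1 replicate 2 the fold change was 0.94 or 0.97, under the size threshold.

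*RNF103-CHMP3* joins a ubiquitin ligase of the endoplasmic reticulum to *CHMP3*, a subunit of the membrane-remodelling ESCRT-III complex. Normalized counts of 47.6, 96.7 and 54.5 in the shCtrl libraries stood against 10.1, 35.6 and 2.8 in the shPCBP1 libraries. Each shPCBP1 library was below each shCtrl library, and the gene fell by 2.02 on the log2 scale (SE 0.628, DESeq2 adjusted p 0.00631). *CHMP3* moved the other way, rising by 0.39 (SE 0.0543, DESeq2 adjusted p 1.98e-11). Only 12.3% of the bases of the readthrough transcript lay in *RNF103* exons and 67.0% in *CHMP3* exons, because it begins at exons upstream of *RNF103* that neither parent uses. With any 1 library left out the log2 change ran from -3.31 (without shPCBP1 replicate 2) to -1.53, and DESeq2 gave an adjusted p in 1 of these 6 fits, without shPCBP1 replicate 3 (0.0393).

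The other rises were smaller. *BCL2L2-PABPN1* joins an anti-apoptotic gene to *PABPN1*, the nuclear poly-A binding protein that sets poly-A tail length. It rose from 833.1, 752.0 and 827.9 normalized counts in the shCtrl libraries to 1258.1, 1100.4 and 1074.0 in the shPCBP1 libraries, clearly apart, by 0.51 on the log2 scale (SE 0.103, DESeq2 adjusted p 8.74e-06). *PABPN1* had a log2 fold change of 0.07 (DESeq2 adjusted p 0.156). *DUS4L-BCAP29*, from a transfer RNA modifying enzyme and a chaperone-like protein of the endoplasmic reticulum, rose by 0.29 (SE 0.0582, DESeq2 adjusted p 9.28e-06) with its groups apart.

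*RBM14-RBM4* joins a pair of RNA-binding proteins of transcription and splicing. The groups were apart, at 872.7, 834.6 and 1033.4 normalized counts in shCtrl against 1488.6, 1195.4 and 1150.1 in shPCBP1, and the log2 change was 0.48 (SE 0.118, DESeq2 adjusted p 0.000301). Of its TPM, 81.7% lay in RBM14-RBM4-204, a transcript of 523 bases without a defined coding sequence, of which 81.8% falls in *RBM14* exons and none in *RBM4* exons. By counts the gene was more evenly divided, with a mean of 465 normalized counts in this transcript and 537 in the NMD target RBM14-RBM4-202. The DESeq2 fit over transcripts gave log2 changes of 0.75 (adjusted p 0.00424) and 0.46 (adjusted p 0.113) for them. With protein-coding transcripts alone the direction turned, to a log2 fold change of -1.03 (DESeq2 adjusted p 0.0934). *FMC1-LUC7L2*, from a mitochondrial ATP synthase assembly factor and a U1-associated splicing factor, rose by 0.36 (SE 0.11, DESeq2 adjusted p 0.00468), but its groups overlapped and it did not pass without shCtrl replicate 1 (0.0519) or without shPCBP1 replicate 2 (0.123). *LUC7L2* rose by 0.21.

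*ATP5MF-PTCD1*, from an ATP synthase subunit and a mitochondrial RNA-processing protein, had 1913.2, 1959.4 and 2143.7 normalized counts in the shCtrl libraries against 2502.8, 2394.3 and 2557.6 in the shPCBP1 libraries. The groups were apart, with a rise of 0.31 on the log2 scale (SE 0.0711, DESeq2 adjusted p 0.000125), and *PTCD1* rose by 0.22. With transcript length offsets the fold change was 0.18 and the adjusted p 0.0651.

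*ST20-MTHFS*, whose downstream parent is a folate enzyme, had 151.7, 261.9 and 122.8 normalized counts in shCtrl against 284.5, 358.5 and 287.9 in shPCBP1 (log2 fold change 0.81, SE 0.251, DESeq2 adjusted p 0.00629). The groups were apart, yet the gene did not pass with shCtrl replicate 1 left out (0.0728), nor with shCtrl replicate 3 (0.0735) or shPCBP1 replicate 2 (0.0961). *HSPE1-MOB4*, from the mitochondrial chaperonin HSP10 and a regulator of the STRIPAK phosphatase complex, had 187.6, 52.2 and 116.9 normalized counts in shCtrl against 218.1, 166.2 and 271.3 in shPCBP1. These overlapped (log2 fold change 0.87, SE 0.341, DESeq2 adjusted p 0.0374). The gene did not pass in edgeR (0.109), or in DESeq2 with transcript length offsets (0.0873) or protein-coding transcripts alone (0.0771). With a library left out it passed only without shCtrl replicate 1 (log2 fold change 1.35, adjusted p 0.00195), and its fold change was 0.52 without shCtrl replicate 2.

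*CORO7-PAM16*, from a coronin of the Golgi and a motor subunit of mitochondrial protein import, rose by 0.68 (SE 0.253, DESeq2 adjusted p 0.0274), with overlapping groups, an edgeR adjusted p of 0.0705 and a DESeq2 adjusted p of 0.0546 with transcript length offsets. With a library left out it passed only without shPCBP1 replicate 2 (0.00169), and the other fits gave 0.0541 to 0.201.

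*PMF1-BGLAP* joins a kinetochore gene to the bone protein osteocalcin. At 257.9, 260.8 and 278.4 normalized counts in shCtrl against 404.8, 406.0 and 346.0 in shPCBP1, its groups were apart, and it rose by 0.54 (SE 0.16, DESeq2 adjusted p 0.00402), while *PMF1* had a log2 fold change of 0.02. The log2 ratio of the fusion to *BGLAP* alone, described below, was lower in shPCBP1, so the fusion was not higher against both parents. *ANKHD1-EIF4EBP3*, which fuses an ankyrin repeat gene to an inhibitor of cap-dependent translation, rose by 0.34 (SE 0.0766, DESeq2 adjusted p 0.000102). *PEDS1-UBE2V1*, from a plasmalogen desaturase and a ubiquitin-conjugating enzyme variant, rose by 0.40 (SE 0.138, DESeq2 adjusted p 0.0139) with overlapping groups, an edgeR adjusted p of 0.0616 and a DESeq2 adjusted p of 0.052 with transcript length offsets. With a library left out it passed only without shCtrl replicate 1 (0.0125) or shPCBP1 replicate 3 (1.84e-05), against 0.0778 to 0.193 in the other fits.

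Besides *RNF103-CHMP3*, 2 fusions fell. *RTEL1-TNFRSF6B*, from a telomere helicase and a decoy receptor, fell by 0.25 (SE 0.0922, DESeq2 adjusted p 0.0268), with overlapping groups, and *RTEL1* fell by 0.35. *JMJD7-PLA2G4B*, from a hydroxylase and a phospholipase, fell by 0.27 (SE 0.102, DESeq2 adjusted p 0.0297), with its groups apart. The most abundant form of both was a retained-intron transcript. With a library left out, *RTEL1-TNFRSF6B* passed only without shCtrl replicate 3 (0.00613) or shPCBP1 replicate 1 (0.00203), and *JMJD7-PLA2G4B* only without shCtrl replicate 1 (0.0178) or 2 (0.0386), with a log2 change of -0.16 without shCtrl replicate 3. With transcript length offsets neither passed in DESeq2 (0.072 and 0.177), nor did *JMJD7-PLA2G4B* with protein-coding transcripts alone (0.626). The share that *JMJD7-PLA2G4B* held of its locus, defined below, was 23.0%, 21.0% and 27.7% in shCtrl and 29.7%, 30.9% and 30.3% in shPCBP1, with no overlap. Its log2 ratio difference of 0.48 did not pass (limma adjusted p 0.132) and turned to -0.10 with scaled counts and to -0.59 against *PLA2G4B* alone, while the locus as a whole fell by 0.25 (DESeq2 adjusted p 0.0115).

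Readthrough genes and their parents did not move as a unit. Among the 18 that passed, X passed in the same direction in 4 and in the opposite direction in 2, Y passed in the same direction in 2 and in the opposite in 2, and neither parent passed in 9. Over the 184 parents with an adjusted p, 28 rose and 29 fell (17.7% and 13.5% of all genes did), 3 passed the size threshold (against 1.37%), and the median log2 fold change was -0.002.

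**Figure D3:**
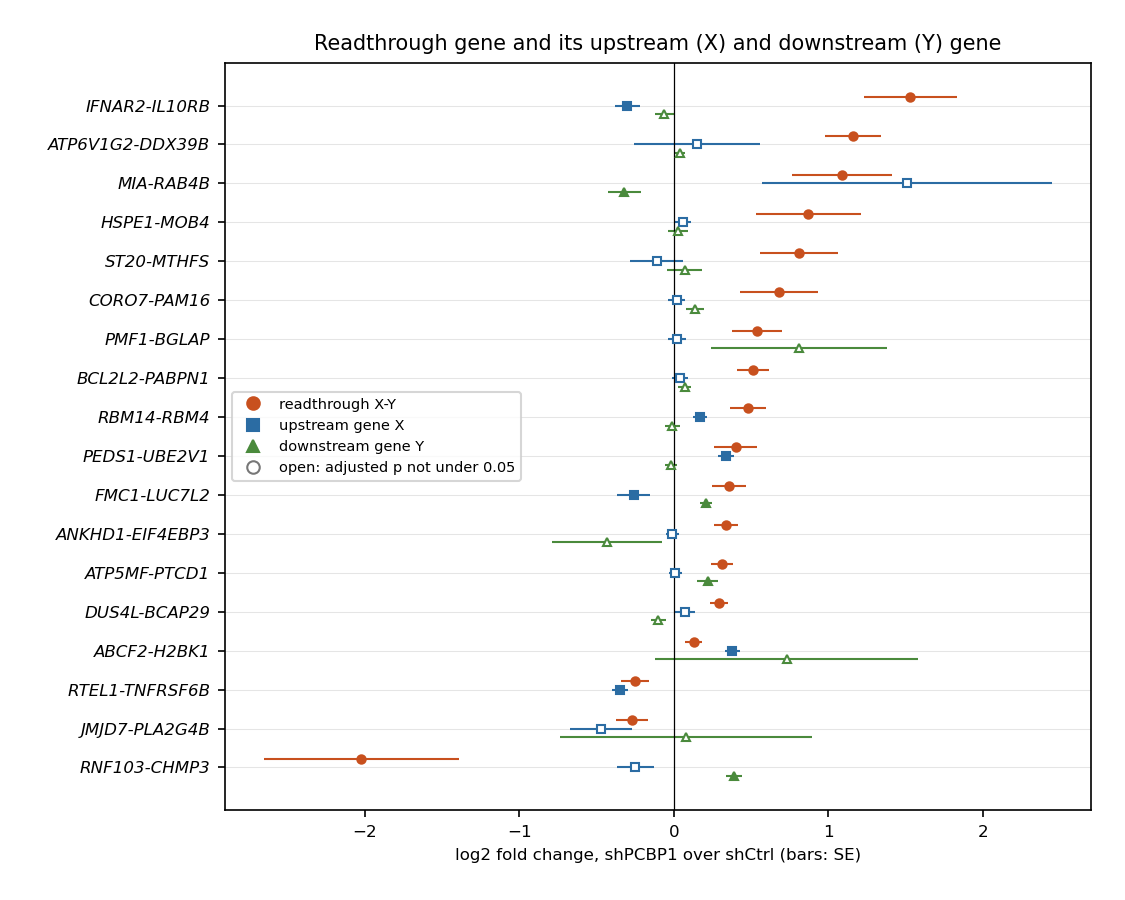
The log2 fold change (shPCBP1 over shCtrl, bars are SE) of the 18 readthrough genes, of their upstream gene X and of their downstream gene Y, from the DESeq2 fit over all genes. Filled points passed an adjusted p of 0.05. Most parents lie close to 0 next to a readthrough gene that lies to the right of them, and parents with long bars have few counts.

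The share of the locus was compared next. For 86 members the log2 ratio of the TPM of X-Y to the summed TPM of X and Y was fitted with limma together with 11065 pairs of neighbouring coding genes on the same strand, each taken as the lower gene over the higher. Of the 86, 7 passed an adjusted p of 0.05 (8.14%, against 12.8% of all ratios), 6 higher (against 5.07%) and 1 lower (against 7.75%). The median difference was 0.20 for readthrough ratios and -0.061 for the pairs. It was above 0 in 64 and below 0 in 22 readthrough loci, and above 0 in 42.9% of the pairs. Shares did not overlap between the groups in 23 members (26.7%, against 34.3% of all ratios), with 18 higher (against 13.9%) and 5 lower (against 20.5%).

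**Figure D4:**
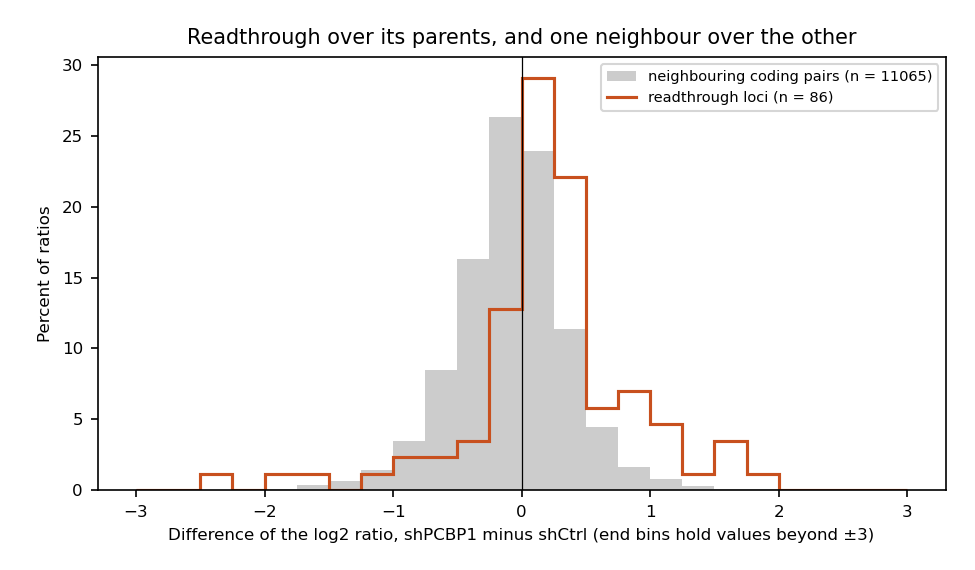
Distribution of the difference in log2 ratio (shPCBP1 minus shCtrl) for the 86 readthrough loci, each X-Y over X and Y (line), and for the 11065 neighbouring pairs (grey area), in percent of ratios per bin. The readthrough line peaks to the right of 0, with a median of 0.20, and the pairs centre near 0.

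In *SPECC1L-ADORA2A*, which joins a cytoskeleton adaptor to an adenosine receptor, the readthrough share was 0.0696%, 0.694% and 0% in shCtrl and 3.64%, 4.30% and 2.50% in shPCBP1. The groups were far apart, with a log2 ratio difference of 1.91 (SE 0.302, limma adjusted p 0.00615) that stayed between 1.77 and 2.16 and passed in each of the 6 fits with a library left out. Its size depended on the pseudocount of 0.1 TPM, being 3.93 with 0.01 TPM, 0.47 with 1 TPM and 4.89 with scaled counts, all past the threshold. It had 3.7, 33.7 and 0.0 normalized counts in shCtrl against 187.8, 214.9 and 120.4 in shPCBP1. In the gene fit the log2 fold change of 3.82 (SE 1.61) did not pass (DESeq2 adjusted p 0.0551), while edgeR gave 0.00155. DESeq2 gave 3.2e-17 without shCtrl replicate 2 (log2 fold change 6.64) and 0.0074 without shCtrl replicate 3.

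*ADORA2A*, which shares exons with this transcript, was at 1.33, 0.746 and 0.893 TPM in shCtrl and 0.365, 0.0387 and 0.361 TPM in shPCBP1, all lower. It fell by 2.92 on the log2 scale (SE 0.932, DESeq2 adjusted p 0.00806). The locus summed over *SPECC1L*, *ADORA2A* and the fusion had a log2 fold change of 0.13 (DESeq2 adjusted p 0.0522). The readthrough gene and *ADORA2A* were thus estimated to move in opposite directions on shared exons, and the part played by the division of reads was not tested.

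*IFNAR2-IL10RB* held 0.892%, 0.406% and 1.07% of its locus in shCtrl and 2.10%, 3.05% and 2.6% in shPCBP1 (log2 ratio difference 1.52, limma adjusted p 0.0202). *ATP6V1G2-DDX39B* held 0.533%, 1.05% and 0.839% in shCtrl and 1.54%, 1.37% and 1.90% in shPCBP1 (difference 1.01, limma adjusted p 0.0316). *MIA-RAB4B* held 3.75%, 3.54% and 2.59% in shCtrl and 5.51%, 8.58% and 7.68% in shPCBP1 (difference 1.03, limma adjusted p 0.0421). In each of these loci every shPCBP1 share was above every shCtrl share, and the exact permutation test on the shares gave its smallest possible p with 3 against 3 libraries, 0.1.

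*RBM14-RBM4* held 12.3%, 11.8% and 15.2% in shCtrl and 18.6%, 18.5% and 17.0% in shPCBP1 (difference 0.55, limma adjusted p 0.0174). *STON1-GTF2A1L*, from an endocytic adaptor and a germ-cell transcription factor subunit, passed as well and is named after its values were seen. Its share was 2.47%, 5.11% and 3.14% in shCtrl and 12.8%, 8.91% and 9.83% in shPCBP1 (difference 0.91, limma adjusted p 0.034), on normalized counts of 8.8 to 33.7 only, for which the DESeq2 gene fit gave no adjusted p. With a pseudocount of 0.01 TPM the difference was 1.53 and no longer passed (limma adjusted p 0.0716), and with 1 TPM it was 0.32. *RNF103-CHMP3* was the single locus with a lower share, at 2.48%, 5.40% and 2.62% in shCtrl and 0.377%, 1.5% and 0.118% in shPCBP1 (difference -2.28, limma adjusted p 0.0317).

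Apart from *SPECC1L-ADORA2A*, these loci passed with few of the libraries left out. In limma, *IFNAR2-IL10RB* passed without shCtrl replicate 3 (adjusted p 0.0256) or shPCBP1 replicate 1 (0.043), and *RBM14-RBM4* without shCtrl replicate 3 (0.00567) or shPCBP1 replicate 3 (0.0311). *ATP6V1G2-DDX39B* passed without shCtrl replicate 2 (0.028), *MIA-RAB4B* without shPCBP1 replicate 1 (0.0467) and *RNF103-CHMP3* without shPCBP1 replicate 2 (0.0122). *STON1-GTF2A1L* passed in 0 of the 6 fits (0.0605 to 0.105). The other fits of the 5 former loci gave adjusted p-values up to 0.126, and the differences kept their direction. Without the filter on counts *ATP6V1G2-DDX39B* (0.0586), *MIA-RAB4B* (0.0776) and *RNF103-CHMP3* (0.0677) did not pass, nor against X alone, where *RBM14-RBM4* (0.0732) did not pass either and *MIA-RAB4B* turned to -0.91. With a pseudocount of 1 TPM the differences were 0.70 for *IFNAR2-IL10RB*, 0.51 for *MIA-RAB4B* and -1.06 for *RNF103-CHMP3*, which still passed.

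**Figure D5:**
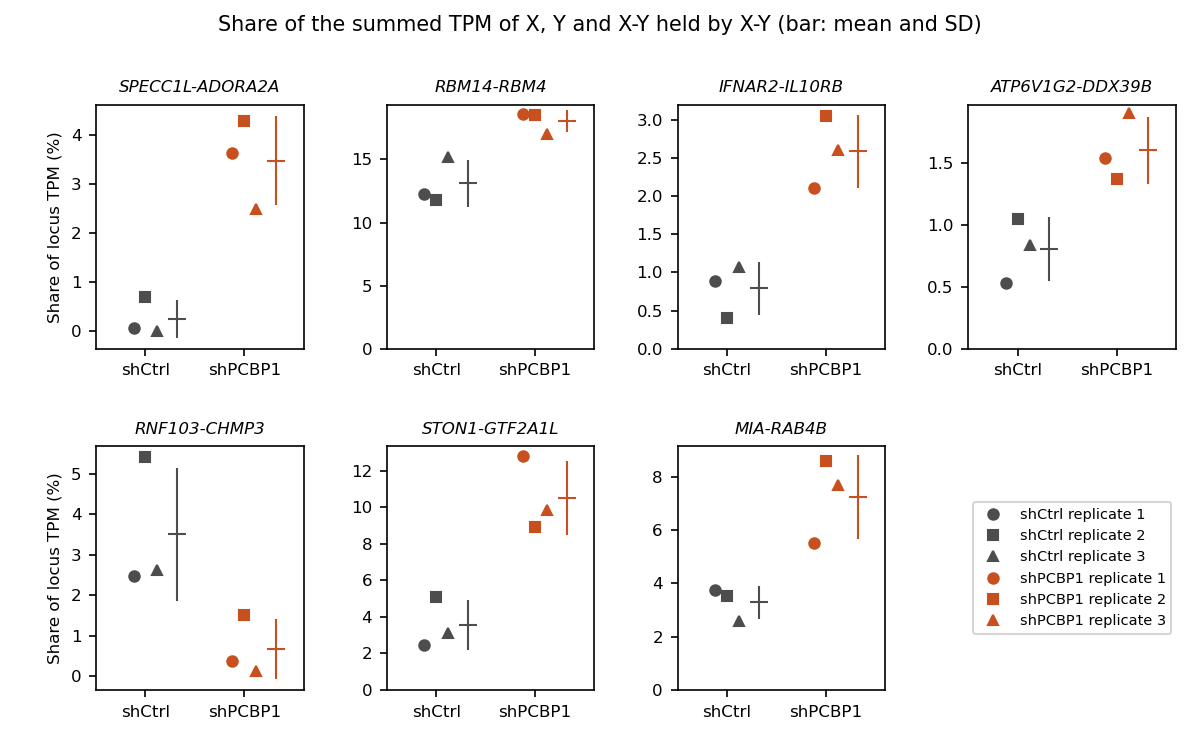
Share of the summed TPM of X, Y and X-Y that the readthrough gene held in each library (percent) for the 7 loci with a limma adjusted p under 0.05, with the mean and SD of each group beside the points. The groups do not overlap in any of the 7, and RNF103-CHMP3 is the only locus with the lower values in shPCBP1.

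Summing a locus removes the division of reads between the readthrough gene and its parents. The readthrough gene held a median of 3.63% of its locus, so such a sum mostly measures X and Y. In most loci it could not show a change of the fusion. After each readthrough gene was merged with X and Y there were 119 loci, and 36 of the 105 with an adjusted p passed 0.05 in DESeq2 (34.3%, against 32.4% of all features), 19 higher (against 18.4%) and 17 lower (against 14.0%). Readthrough genes that share a parent were merged together, so 2 of the loci held 2 or more readthrough genes. Of the 105, 0 passed the size threshold, against 1.25% of all features, while 44 of 115 were at an unadjusted p under 0.05, and 33 loci passed in edgeR. The 4 loci whose readthrough gene passed the size threshold are given singly. The log2 fold change of the merged locus was 0.06 for *ATP6V1G2-DDX39B* (DESeq2 adjusted p 0.172), -0.01 for *MIA-RAB4B* (0.824) and -0.14 for *IFNAR2-IL10RB* (0.0489). The *MIA-RAB4B* locus also summed *EGLN2* and the fusion *RAB4B-EGLN2*, which shares *RAB4B*. Its value is therefore not that of *MIA*, *RAB4B* and their fusion alone. The *RNF103-CHMP3* locus rose by 0.26 (DESeq2 adjusted p 3.2e-07), against the fall of the readthrough gene.

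The summed TPM of all readthrough genes was 498.7, 501.9 and 455.7 in shCtrl and 544.6, 553.1 and 512.1 in shPCBP1. Each shPCBP1 sum was above each shCtrl sum, at 0.0513% to 0.0554% of all TPM against 0.0456% to 0.0502%. Without the 5 most abundant members the sums were 257.3 to 270.0 in shCtrl and 286.5 to 303.3 in shPCBP1. By type, protein-coding readthrough transcripts summed to 298.6 to 338.8 TPM in shCtrl and 344.1 to 382.2 TPM in shPCBP1, which did not overlap. NMD transcripts summed to 112.6 to 128.9 TPM and 121.2 to 132.3 TPM, which did, and retained-intron transcripts to 14.70 to 16.44 TPM and 12.30 to 13.96 TPM, all lower in shPCBP1. Transcripts without a defined coding sequence summed to 21.8 to 28.16 TPM and 31.69 to 37.41 TPM in the same order, all higher in shPCBP1. By gene, 11 of 41 members whose most abundant transcript was protein-coding rose and 1 fell, with a median log2 fold change of 0.16. Of 21 with an NMD transcript 3 rose and none fell, with a median of 0.38. Among all genes 17.7% rose and 13.5% fell.

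At the level of transcripts, 19 of 205 readthrough transcripts had a DESeq2 adjusted p under 0.05 (9.27%, against 9.27% of all transcripts), 14 higher (against 4.98%) and 5 lower (against 4.29%). The edgeR test called 0 of 240, against 0.544% of all transcripts, with 24 at an unadjusted p under 0.05. On simulated transcripts, called at the adjusted p alone, DESeq2 made 1456 false calls beside 93 of 200 true ones, so the transcript values are given as descriptions. The forms below were named by no rule set beforehand, and other forms that passed in DESeq2 are not described.

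In *CORO7-PAM16* the forms of the fusion were estimated in opposite directions. The protein-coding CORO7-PAM16-202 was at 0.0396, 0.0395 and 0.264 TPM in shCtrl and 0.739, 0.424 and 0.944 TPM in shPCBP1. The NMD form CORO7-PAM16-203 was at 0.360, 0.473 and 0.251 TPM in shCtrl and 0.134, 0.111 and 0.0888 TPM in shPCBP1. Neither form overlapped between the groups, and neither passed in edgeR (adjusted p 0.4 and 0.212).

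*RTEL1-TNFRSF6B* showed a like contrast with its types in the other order. The NMD form RTEL1-TNFRSF6B-202 was at 0.417, 0.436 and 0.386 TPM in shCtrl and 0.950, 0.834 and 0.665 TPM in shPCBP1, all higher. The retained-intron form RTEL1-TNFRSF6B-203 was at 0.845, 0.969 and 0.829 TPM in shCtrl and 0.537, 0.563 and 0.541 TPM in shPCBP1, all lower. These forms had means of 245 and 344 normalized counts, and neither passed in edgeR (adjusted p 0.154 and 0.173). The most abundant form, RTEL1-TNFRSF6B-201 with retained introns, had 1510 and held 69.0% of the gene's TPM. Its log2 change of -0.37 (SE 0.134) did not pass in the DESeq2 fit over transcripts (adjusted p 0.0618). The small fall of the whole gene therefore held a higher form beside lower ones, with most of its counts in RTEL1-TNFRSF6B-201. In *DUS4L-BCAP29* the protein-coding DUS4L-BCAP29-204 was at 3.17, 2.42 and 2.66 TPM in shCtrl and 4.15, 4.93 and 4.68 TPM in shPCBP1, again with no overlap. It did not pass in edgeR (adjusted p 0.102). The protein-coding DUS4L-BCAP29-201 and DUS4L-BCAP29-208 had log2 changes of 0.37 and -1.38 and did not pass (DESeq2 adjusted p 0.542 and 0.858).

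The genes whose products end transcription or degrade NMD targets were examined beside the readthrough genes. Of 40 genes of 3′ end processing and transcription termination, 22 rose and 3 fell, with a median log2 fold change of 0.13, where 17.7% of all genes rose, 13.5% fell and the median was 0.002. *DHX9*, a helicase that resolves RNA-DNA hybrids, rose by 0.30 and *WDR82*, a subunit of termination complexes, by 0.29, whereas *SYMPK*, a scaffold protein of 3′ end cleavage, fell by 0.29 and *CPSF1*, a scaffold subunit of the cleavage and polyadenylation specificity factor, fell by 0.25. All were past an adjusted p of 0.05 in DESeq2, and no gene of the list passed the size threshold.

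Of 21 NMD factors, 12 rose and 1 fell, with a median of 0.16, against the same shares of all genes (17.7% and 13.5%). *SMG5*, an adaptor that recruits decay enzymes, rose by 0.31 and *SMG1*, the kinase that activates the central factor UPF1, by 0.19, while *UPF3A* fell by 0.16. None of the 21 passed the size threshold. The medians of both lists were close to that of the readthrough genes, 0.16, and their part in the readthrough values was not tested. Such a median was not particular to these lists: it was 0.17 for the 12 erythroleukemia markers, and -0.19 for the markers of other cells.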

How the data were processed

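The 6 K562 poly-A RNA libraries were grouped by their labels into 3 shCtrl and 3 shPCBP1. Transcript abundances were estimated by the authors with Salmon 1.10.2 (hg38, per the labels), and the release behind its index is not given in the sources used here. The estimated counts were deposited without normalization, and the deposited TPM values were scaled by the authors' software to effective length. Of 252045 transcripts, 251612 matched GENCODE release 44 (470 of them without the version number). The 433 unmatched ones held 0.136% to 0.147% of the counts and were left out.

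For each gene the estimated counts were added and then rounded. All genes reaching 10 counts over the 6 libraries were fitted with DESeq2 1.42.0 (Wald test, two-sided, Benjamini-Hochberg over all genes), fitted likewise over transcripts and merged loci. Calls with the size threshold asked for an adjusted p under 0.05, a log2 change beyond 1 in either direction and a mean of over 10 normalized counts, and missing adjusted p-values stayed missing. Fold changes are unshrunken. Locus ratios (pseudocount 0.1 TPM, at least 10 mean counts on both sides) were fitted with limma 3.58.1, two-sided, and single shares were tested by exact permutation over libraries, two-sided. Junctions were read from GRCh38 with GENCODE exons, and all 94 read were found in the annotated transcript sequences.

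Depth was 126567836, 83033656 and 140522444 estimated counts in shCtrl and 85121124, 79189195 and 67066747 in shPCBP1, so precision is lowest for low genes in shPCBP1. On simulated data with 3-fold changes the gene fit, called with the size threshold, recovered 153 of 200 genes over 27303 genes with 11 false calls. The ratio fit, called at the adjusted p alone, recovered 191 of 252 ratios over 11162 ratios with 19. Gene calls at the adjusted p alone were not scored. The simulated counts also held no division of reads between a readthrough gene and its parents, so these figures do not cover that uncertainty. Genes named were those with an adjusted p under 0.05, the 5 of highest TPM, the 5 loci of lowest p in the ratio fit, and 2 rises and 2 falls of each list. The members and lists were chosen with earlier results of these data known. Alternatives were edgeR 4.0.16, TMM factors, length offsets, other filters and pseudocounts, other denominators, protein-coding transcripts alone, a replicate block and leaving out each library. The labels do not say whether libraries of equal replicate number were handled together. Deviations from the group means correlated at 0.013, 0.00453 and -0.0285 between equal numbers, so no shared deviation was seen.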

Additional observations from a re-analysis of the deposited data

How the results depend on the processing

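Readthrough genes hold few counts and share exons with their parents, so counts near the thresholds moved. The 4 called readthrough genes became 7 with edgeR, 0 tested against a change of 1 (log2) and 2 with protein-coding transcripts alone, and 2 to 6 with a library left out (2 without shPCBP1 replicate 2, 6 without shCtrl replicate 2). The 18 with an adjusted p under 0.05 became 0 tested against a change of 1 (log2) and 11 with protein-coding transcripts alone, and 12 to 15 with a library left out. Merged loci, 36, became 0 tested against a change of 1 (log2) and 24 to 37 with a library left out. Readthrough transcripts, 19, became 0 with edgeR and 15 to 24 with a library left out. Locus ratios, 7, became 16 with scaled counts in place of TPM, 4 without the filter and 11 with a pseudocount of 1 TPM, and 1 to 5 with a library left out (1 without shCtrl replicate 1).

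The share differences became, with estimated counts in place of TPM, -1.08 percentage points for *RNF103-CHMP3* (main -2.84), 7.45 for *MIA-RAB4B* (3.96) and 2.38 for *IFNAR2-IL10RB* (1.80), the last 0.271 with protein-coding transcripts alone. With a library left out they were -3.35 to -1.89 for *RNF103-CHMP3*, 0.648 to 0.918 for *ATP6V1G2-DDX39B*, 3.30 to 4.84 for *MIA-RAB4B* and 1.56 to 2.04 for *IFNAR2-IL10RB*.

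Directions turned for *RBM14-RBM4* (log2 fold change -1.03, protein-coding transcripts alone) and *ARPC4-TTLL3* (0.22 likewise, 0.03 without shCtrl replicate 1, and -0.13 to 0.05 over all libraries left out, the highest without shPCBP1 replicate 3), and in ratios for *MIA-RAB4B* (-0.91, X alone), *PMF1-BGLAP* (-0.49), *JMJD7-PLA2G4B* (-0.59), *BOLA2-SMG1P6* (-0.06) and *CFAP298-TCP10L* (0.72) with Y alone, *JMJD7-PLA2G4B* with scaled counts (-0.10) and *ARPC4-TTLL3* without shPCBP1 replicate 1 (-0.02, the range over libraries being -0.02 to 0.13). The cause was not tested. Under the replicate block 16 genes passed, 14 of them shared with the 18, and 5 were called, with 7 ratios, 28 loci and 22 transcripts, although the labels state no pairing and equal numbers showed no shared deviation. Of the other values of named genes, 136 fold changes kept direction and side of the threshold under the alternatives that keep all libraries and 37 lost the threshold.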
